A study of Homo sapiens with 6 samples.

Results

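The 39 genes described here act in homologous recombination, the Fanconi anaemia pathway and the signalling that follows damage to DNA. They were taken by symbol from counts of reads on 56305 genes, and all 39 were found. MOLM13 is a human acute myeloid leukemia cell line, which per the labels carries an FLT3 internal tandem duplication (FLT3-ITD) and a translocation that joins chromosomes 9 and 11. The cells were given DMSO, the solvent, in 3 libraries, or 1 µM ZW27941 in 3 libraries, and RNA was taken after 24 h. ZW27941 is a PROTAC, a compound made to bring the RNA methyltransferase METTL3 to the ubiquitin ligase VHL so that the METTL3 protein is degraded. A single cell line, dose and time were sequenced, and nothing in the labels says that the 3 libraries of a group came from separate cultures, so p-values measure the spread between these libraries, which may be technical.

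When both strands of DNA are broken, the MRE11, RAD50 and NBN complex binds the ends and activates the kinase ATM. Nucleases and helicases then resect the ends to single strands, BRCA1, PALB2 and BRCA2 prepare these strands for exchange, and the sister chromatid is copied. Single-stranded DNA at stalled forks activates a second kinase, ATR, which needs ATRIP and TOPBP1 and acts through CHEK1. Where the strands are crosslinked, the Fanconi core complex attaches ubiquitin to FANCD2 and FANCI, and the repair then passes to recombination. Many of these genes are transcribed most in the S and G2 phases of the cell cycle.

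The libraries held 143454176 to 178744976 counts on genes, and the smallest mean of any member was 8.26 CPM (counts scaled to a common library total). These totals exceed the number of raw reads per sample that the labels state, and the reason is not given in the sources used here. ZW27941 replicate 3 stood apart: 5.25% of its reads aligned to several places against 3.63% to 4.07% in the other 5 libraries, so the main counts are also given without it. The METTL3 transcript had a log2 fold change of 0.01 (edgeR quasi-likelihood, Benjamini-Hochberg adjusted p = 0.765), which does not check the labels, since the compound acts on the protein. METTL14, the partner of METTL3, had a log2 fold change of 0.17 (adjusted p = 1.06e-04) and VHL one of 0.08 (adjusted p = 0.0342), though the VHL libraries of both groups overlapped. All 8 myeloid markers fixed for the cell line were expressed, among them FLT3 at 563 CPM in DMSO. Of these markers 4 rose and 0 fell, a share called of 50%, against 30.1% of all genes tested. CSF1R, a receptor of the monocyte lineage, had a log2 fold change of 0.40 (edgeR adjusted p = 4.69e-10), larger than that of any member. SPI1, MPO and CEBPA had 0.11, 0.09 and 0.08. The part of these markers in the changes of the members was not tested. Of 10 markers of other cell types, 3 passed the filter on low counts and 0 of these passed the test, while HBB had 0 counts in every library.

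All 39 genes passed the filter on low counts. Of these, 18 passed the test at an adjusted p under 0.05, 16 of them higher on ZW27941 and 2 lower, and 21 did not pass. The members called thus made up 46.2% of the list, against 30.1% of all 20399 genes tested. By direction, 41% of the members rose against 16.3% of all genes, and 5.13% fell against 13.8%. The split over all genes was 3333 higher and 2816 lower, and with upper quartile normalization it was 2644 higher and 3643 lower, while 16 of the 18 member calls held (14 higher, 2 lower). Highly expressed genes pass more often, and among the 9606 genes whose DMSO level lay within the range of the members, 45% passed, 25.4% higher and 19.6% lower. The share of members called was thus close to that of genes of like level, with more of them higher and fewer lower. That comparison with genes of like level was added after the results had been seen.

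The changes were small. Log2 fold changes ran from -0.14 (FANCA) to 0.29 (ATR), with a median of 0.06 over the 39 members and of -0.0019 over all genes tested. The median size of the change was 0.15 among the members called and 0.17 among all genes called. None of the members (0) passed the wider limit of a log2 fold change over 1 in size with an unadjusted p under 0.05. At that unadjusted p alone, 21 members were higher and 2 lower, against 4229 higher and 3852 lower of all 20399 genes. Among the 9606 genes of like level, 2913 were higher and 2361 lower. The libraries of both groups did not overlap in 22 members (56.4%), 20 higher and 2 lower, against 41.6% of all genes, 21.7% higher and 19.9% lower, and against 55.2% of the genes of like level, 30.5% higher and 24.7% lower. Without ZW27941 replicate 3 the groups did not overlap in 25 members. With fewer libraries any gene separates more easily, and the share over all genes was not taken for that case. Relative to the DMSO mean, the median member stood at 0.072, 0.070 and 0.065 on the log2 scale in the 3 ZW27941 libraries and between -0.012 and 0.0078 in the DMSO libraries. Without ZW27941 replicate 3, 21 members passed, and 0 of the 18 were lost, while 3251 of all genes were higher and 2883 lower. In bulk RNA, a change in the share of cells in a phase of the cycle and a change in RNA per cell cannot be told apart.

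**Figure D1:**
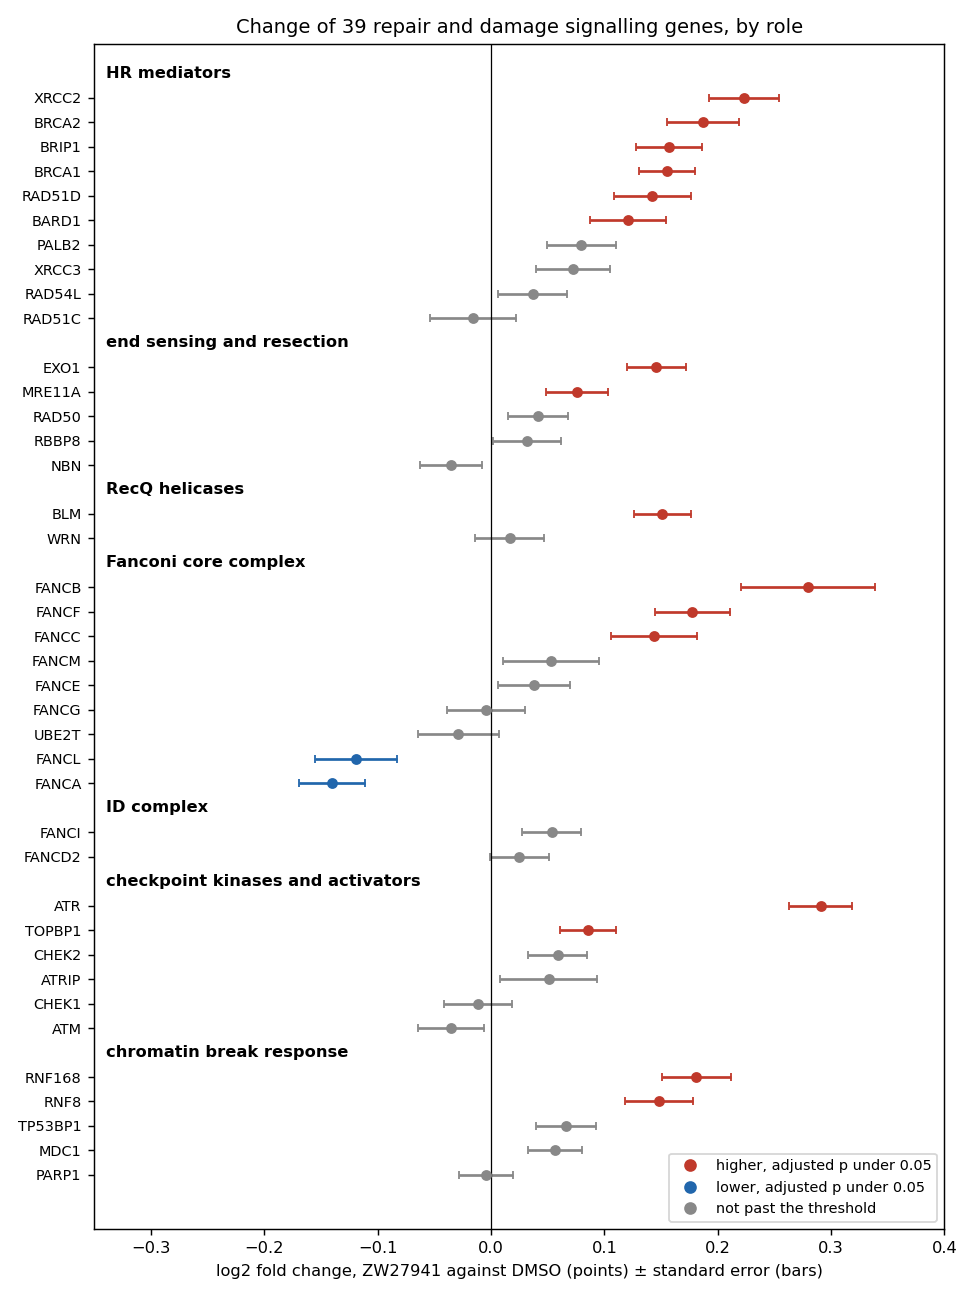
Log2 fold change of each of the 39 genes on ZW27941 against DMSO, with bars of 1 standard error from the fit, grouped by role. Changes run from -0.14 for FANCA to 0.29 for ATR. The 16 genes called higher fall in every role but the FANCD2 and FANCI pair, and the 2 called lower, FANCA and FANCL, lie in the Fanconi core complex.

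Some of the sequence around the start of these genes is shown first, since cell cycle genes share known promoter elements. RefSeq promoters (GRCh38.p14), which run from 250 bases before the start to 50 after it, were found for 35 of the 39 genes, with no entry for MRE11A, NBN, WRN and FANCI. The promoters of the 2 risen and the 2 fallen genes with the lowest p are given 5′ to 3′ along the gene, and all lie on the minus strand. Capitals mark an E2F-type site or a CCAAT box, read on either strand. The E2F-type letters searched were TTTCCCGC, TTTGGCGC, TTTCGCGC and TTTGCCGC, and 0 matches of the motifs overlapped.
ATR, higher, chr3:142578684-142578983: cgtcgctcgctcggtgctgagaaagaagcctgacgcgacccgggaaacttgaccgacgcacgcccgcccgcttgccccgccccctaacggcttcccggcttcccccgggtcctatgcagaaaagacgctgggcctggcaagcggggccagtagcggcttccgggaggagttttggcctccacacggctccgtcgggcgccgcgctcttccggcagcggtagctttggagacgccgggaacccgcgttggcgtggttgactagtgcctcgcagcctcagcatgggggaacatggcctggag
XRCC2, higher, chr7:152676092-152676391: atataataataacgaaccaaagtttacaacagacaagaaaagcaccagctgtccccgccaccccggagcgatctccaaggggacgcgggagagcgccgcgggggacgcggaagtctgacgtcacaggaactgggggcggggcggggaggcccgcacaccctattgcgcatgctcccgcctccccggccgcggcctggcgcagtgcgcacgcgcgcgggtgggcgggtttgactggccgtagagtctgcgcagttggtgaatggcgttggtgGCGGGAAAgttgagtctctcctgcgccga
FANCA, lower, chr16:89816598-89816897: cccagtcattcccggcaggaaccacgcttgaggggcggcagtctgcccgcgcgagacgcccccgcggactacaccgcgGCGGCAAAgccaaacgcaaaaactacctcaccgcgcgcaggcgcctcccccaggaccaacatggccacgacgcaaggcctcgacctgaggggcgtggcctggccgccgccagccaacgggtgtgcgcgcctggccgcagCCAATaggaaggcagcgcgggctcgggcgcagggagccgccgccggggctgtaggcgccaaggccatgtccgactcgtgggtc
FANCL, lower, chr2:58241276-58241575: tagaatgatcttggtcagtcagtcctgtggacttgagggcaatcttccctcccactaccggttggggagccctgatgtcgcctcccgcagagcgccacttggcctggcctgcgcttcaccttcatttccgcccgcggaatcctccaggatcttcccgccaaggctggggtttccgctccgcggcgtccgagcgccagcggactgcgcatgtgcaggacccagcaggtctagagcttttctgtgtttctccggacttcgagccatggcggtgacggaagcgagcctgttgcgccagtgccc

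Neither ATR nor FANCL held any of the letters searched in this window. XRCC2 held an E2F-type match after the start, and FANCA held one before it, as well as a CCAAT box. E2F-type matches were found in 6 of 35 member promoters (17.1%), against 908 of 27305 promoters in the whole table (3.33%). By direction they stood in 4 of 15 genes that rose (26.7%), in 1 of 2 that fell and in 1 of 18 that were not called (5.56%). The other matches are given with 10 bases on either side and the match in capitals, in order to show which of the letters each gene carries.
EXO1, higher, chr1:241848198-241848225: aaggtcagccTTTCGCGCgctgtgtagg
TOPBP1, higher, chr3:133661931-133661958: cgcgcggttgGCGCGAAAgtcggttccc
FANCC, higher, chr9:95317864-95317891: cggggcttccGCGCGAAAccgggaacac
FANCC, higher, chr9:95317738-95317765: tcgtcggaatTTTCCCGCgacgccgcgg
FANCD2, not called, chr3:10026425-10026452: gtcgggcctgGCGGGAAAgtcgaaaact

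EXO1, TOPBP1 and FANCC rose and FANCD2 was not called, and FANCC carried a pair of matches. The cell cycle homology region, TTTGAA on either strand, was in 5 of 35 member promoters (14.3%), against 15.4% of all promoters. CCAAT on either strand was in 16 (45.7%), against 35.7% of all. It stood in 4 of 15 genes that rose (26.7%) and in 11 of 18 that were not called (61.1%). A match of letters is a description and does not show binding, and the differences between these shares were not tested.

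Homologous recombination mediators, the largest role, held the most calls. Of these 10 genes 6 rose and 0 fell, with a median log2 fold change of 0.13. The share called was 60%, against 55.6% in the Fanconi core complex and 45% among genes of like level. XRCC2, which takes part in strand exchange (chr7:152644779-152676165), rose most in this role. It stood at 26.7, 26.4 and 26.7 CPM in DMSO and at 30.7, 32.0 and 30.5 CPM on ZW27941. The groups did not overlap, and the log2 fold change was 0.22 (standard error 0.031, edgeR adjusted p = 1.01e-05), a rise of 16.7%. RAD51D (chr17:35092208-35121522), which works in a complex with XRCC2, had 25.2, 27.0 and 25.3 CPM in DMSO and 27.6, 28.8 and 29.05 CPM on ZW27941. Its lowest treated library lay just above its highest DMSO library (log2 fold change 0.14, standard error 0.034, edgeR adjusted p = 0.0028). RAD51C, which belongs to the complex of XRCC2 and RAD51D and forms another with XRCC3, was not called, at a log2 fold change of -0.02. XRCC3 was not called either, at 0.07.

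BRCA1, the ubiquitin ligase that favours resection and recruits PALB2 (chr17:43044295-43170245), stood at 100, 101 and 99.7 CPM in DMSO and at 113, 113 and 110 CPM on ZW27941. Its means were 100.3 ± 0.746 and 112 ± 1.66 CPM (SD, n = 3), a log2 fold change of 0.16 (standard error 0.025, edgeR adjusted p = 4.96e-05). BRCA2 (chr13:32315474-32400266), which acts on the resected strands together with PALB2, had 58.8, 57.0 and 59.99 CPM in DMSO and 68.8, 68.3 and 63.0 CPM on ZW27941. The third treated library was lower than the other two but still above all DMSO libraries, and the log2 fold change was 0.19 (standard error 0.032, edgeR adjusted p = 1.24e-04). Both breast cancer genes therefore rose, by 11.4% and 13.8%.

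Among proteins that work with BRCA1, BRIP1 and BARD1 rose. BRIP1, a helicase bound by the BRCT repeats of BRCA1 (chr17:61681266-61863521), had 31.8, 31.3 and 31.8 CPM in DMSO and 35.8, 34.7 and 35.4 CPM on ZW27941 (log2 fold change 0.16, standard error 0.029, edgeR adjusted p = 2.68e-04). BARD1 (chr2:214725646-214809711), which forms the ligase with BRCA1, stood at 25.8, 24.5 and 25.2 CPM in DMSO and at 27.5, 28.2 and 26.4 CPM on ZW27941. The BARD1 change of 0.12 (adjusted p = 0.00836) did not pass without DMSO replicate 2, at 0.10, or without ZW27941 replicate 2, also at 0.10. PALB2, the bridge from BRCA1 to BRCA2, missed the threshold at a log2 fold change of 0.08 (adjusted p = 0.0518), although its groups did not overlap, at 23.5 to 23.9 CPM in DMSO and 25.0 to 25.1 CPM on ZW27941. RAD54L, a motor protein that acts during strand invasion, was not called at 0.04.

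Of 5 genes for end sensing and resection, 2 rose and 0 fell, a share called of 40%, against 45% among genes of like level. EXO1, a nuclease for long-range resection (chr1:241847967-241895148), stood at 49.4, 48.9 and 48.3 CPM in DMSO and at 54.4, 54.1 and 53.7 CPM on ZW27941. All treated libraries were above all controls, with a log2 fold change of 0.15 (standard error 0.026, edgeR adjusted p = 2.18e-04). MRE11A, the nuclease that starts resection (chr11:94415578-94493908), had 94.5, 92.1 and 96.4 CPM in DMSO and 99.2, 102 and 96.7 CPM on ZW27941. The closest libraries of both groups nearly met, and the call (log2 fold change 0.08, standard error 0.027, edgeR adjusted p = 0.0401) was lost in 7 of 15 other settings, among them without DMSO replicate 1 or 2 and without ZW27941 replicate 1 or 2. The other genes of the same complex were not called, RAD50 at a log2 fold change of 0.04 and NBN at -0.03, nor was RBBP8, the cofactor that stimulates MRE11A, at 0.03.

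The RecQ helicases unwind recombination intermediates. BLM, which dissolves double Holliday junctions with TOP3A and RMI1 (chr15:90717327-90816165), had 77.6, 75.4 and 75.4 CPM in DMSO and 84.4, 84.8 and 84.5 CPM on ZW27941. The treated libraries lay within 1 CPM of each other and above all controls (log2 fold change 0.15, standard error 0.025, edgeR adjusted p = 8.94e-05). WRN, the Werner syndrome helicase, was not called at 0.02. TOP3A and RMI1 are no members of the list, but both also passed, at log2 fold changes of 0.12 and 0.21. RMI2, which works with them and is no member either, was not called, at -0.01.

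**Figure D2:**
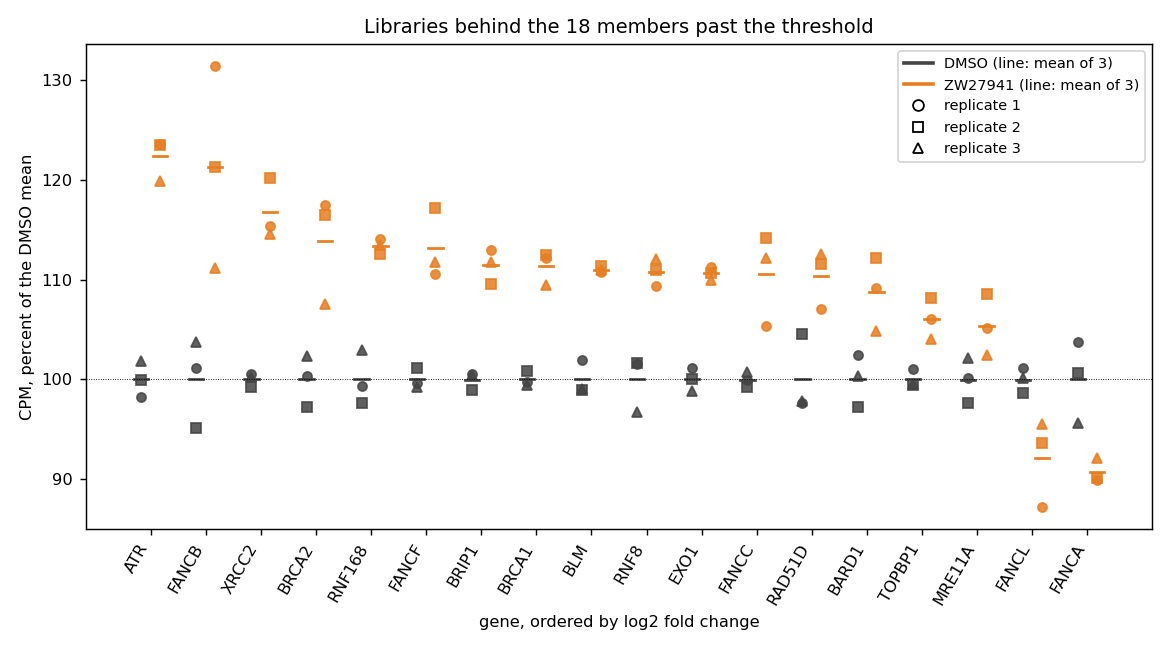
Level of the 18 genes that passed the test in each library, as CPM in percent of the DMSO mean of the gene, in order of log2 fold change. Symbols are single libraries, grey for DMSO and orange for ZW27941, and short lines are the means of 3. For ATR the treated libraries lie well above the controls, at 53.2 to 54.8 against 43.5 to 45.1 CPM, while for MRE11A the closest libraries, at 96.7 and 96.4 CPM, nearly touch.

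Fanconi genes moved in both directions. Among 9 genes of the core complex and its partners, 3 rose and 2 fell, the only members that fell. FANCF, an adaptor of the core complex (chr11:22622890-22625841), stood at 21.1, 21.4 and 21.0 CPM in DMSO and at 23.4, 24.8 and 23.7 CPM on ZW27941 (log2 fold change 0.18, standard error 0.033, edgeR adjusted p = 2.91e-04). FANCB (chrX:14835961-14873069), which binds FANCL in the catalytic module, had 8.35, 7.86 and 8.57 CPM in DMSO and 10.9, 10.0 and 9.18 CPM on ZW27941. Its treated libraries were the most scattered of the genes called, relative to their mean, but all exceeded the controls (log2 fold change 0.28, standard error 0.059, edgeR adjusted p = 0.00102). FANCC (chr9:95099054-95426796) rose from 15.3, 15.2 and 15.4 CPM to 16.1, 17.5 and 17.1 CPM (log2 fold change 0.14, standard error 0.038, edgeR adjusted p = 0.00608), and without ZW27941 replicate 2 it did not pass, at 0.12.

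FANCA, the core subunit most often mutated in Fanconi anaemia (chr16:89737549-89816657), fell from 83.7, 81.2 and 77.1 CPM to 72.6, 72.7 and 74.4 CPM. All treated libraries were below all controls, and the log2 fold change was -0.14 (standard error 0.029, edgeR adjusted p = 8.26e-04), a change of -9.25%. FANCL, the ubiquitin ligase of the complex (chr2:58159243-58241372), had 23.2, 22.6 and 23.0 CPM in DMSO and 19.997, 21.5 and 21.9 CPM on ZW27941 (log2 fold change -0.12, standard error 0.036, edgeR adjusted p = 0.0145). Its call was lost without DMSO replicate 1, at -0.11, and without ZW27941 replicate 1, at -0.08. Both share exon bases with a neighbour, FANCA 23.6% with ZNF276 and FANCL 18.7% with VRK2, whose own log2 fold changes were -0.0076 (adjusted p = 0.876) and -0.03 (adjusted p = 0.586).

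The other core genes were not called. FANCM, the translocase that brings the complex to DNA, was at a log2 fold change of 0.05 and passed only without ZW27941 replicate 3, at 0.10. FANCE had 0.04, FANCG -0.0044, and UBE2T, the ubiquitin-conjugating enzyme that works with FANCL, -0.03. The substrates of the complex were not called either. FANCD2 stood at 106, 109 and 106 CPM in DMSO and at 106, 111 and 108 CPM on ZW27941, with overlapping groups (log2 fold change 0.02, standard error 0.026, edgeR adjusted p = 0.521), and FANCI had 0.05. The core complex as a group had a median of 0.04.

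Of 6 checkpoint kinases and activators, 2 rose and 0 fell, a share called of 33.3%, against 45% among genes of like level. ATR, the kinase of stalled forks (chr3:142449235-142578826), stood at 43.5, 44.3 and 45.1 CPM in DMSO and at 54.8, 54.8 and 53.2 CPM on ZW27941. Its means were 44.3 ± 0.800 and 54.3 ± 0.931 CPM (SD, n = 3), with no overlap, a log2 fold change of 0.29 (standard error 0.028, edgeR adjusted p = 8.61e-08) and a rise of 22.3%. It passed in all 15 other settings that give it a value, at 0.27 to 0.30, and its change was the largest of the members here, though FANCB was larger without DMSO replicate 1 (0.29 against 0.28), DMSO replicate 3 (0.31 against 0.30) or ZW27941 replicate 3 (0.34 against 0.30). TOPBP1, the activator of ATR (chr3:133598175-133662380), had 137, 134 and 134 CPM in DMSO and 143, 146 and 141 CPM on ZW27941 (log2 fold change 0.09, standard error 0.025, edgeR adjusted p = 0.011), and without ZW27941 replicate 2 it did not pass, at 0.07.

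The other genes of this role, ATRIP, CHEK1, ATM and CHEK2, did not pass. ATRIP, the subunit that carries ATR to single-stranded DNA, had a log2 fold change of 0.05. CHEK1, the kinase below ATR, stood at 42.1, 40.2 and 41.2 CPM in DMSO and at 40.0, 40.5 and 42.1 CPM on ZW27941 (log2 fold change -0.01, standard error 0.030, edgeR adjusted p = 0.813). ATM, the kinase of double-strand breaks, stood at 232, 229 and 235 CPM in DMSO and at 233, 232 and 214 CPM on ZW27941, where the third library was low and the other two lay within the controls (log2 fold change -0.04, standard error 0.029, edgeR adjusted p = 0.396). CHEK2, the kinase below ATM, had 55.3, 55.7 and 55.2 CPM in DMSO and 56.9, 57.9 and 58.5 CPM on ZW27941, without overlap but short of the threshold (log2 fold change 0.06, standard error 0.026, edgeR adjusted p = 0.0961). ATR thus rose while CHEK1, ATM and CHEK2 did not pass, and the difference between these genes was not tested.

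The chromatin response to breaks begins with MDC1 on phosphorylated H2AX, after which RNF8 and RNF168 attach ubiquitin to histones and TP53BP1 binds. Of 5 genes in this role, 2 rose and 0 fell, a share called of 40%, against 45% among genes of like level. RNF168 (chr3:196468783-196503768) rose from 27.1, 26.6 and 28.1 CPM to 31.1, 30.7 and 30.9 CPM (log2 fold change 0.18, standard error 0.031, edgeR adjusted p = 1.07e-04). RNF8 (chr6:37353972-37394738) rose from 34.1, 34.1 and 32.5 CPM to 36.7, 37.3 and 37.6 CPM (log2 fold change 0.15, standard error 0.030, edgeR adjusted p = 6.72e-04). Both ubiquitin ligases of this step were higher in every treated library than in any control.

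The reader and the scaffold of the same step did not pass. TP53BP1 stood at 52.6, 52.3 and 51.6 CPM in DMSO and at 55.2, 55.2 and 53.5 CPM on ZW27941 (log2 fold change 0.07, standard error 0.027, edgeR adjusted p = 0.0673). MDC1 had 172, 174 and 172 CPM in DMSO and 182, 180 and 177 CPM on ZW27941 (log2 fold change 0.06, standard error 0.024, edgeR adjusted p = 0.0767). Neither overlapped between groups, and both passed without ZW27941 replicate 3, at 0.08 and 0.07. PARP1, which marks strand breaks with ADP-ribose, stood at 416, 411 and 419 CPM in DMSO and at 414, 412 and 416 CPM on ZW27941, with overlapping groups (log2 fold change -0.0044, standard error 0.023, edgeR adjusted p = 0.911).

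Levels within the list spanned a wide range. Per kilobase of exon, the mean DMSO level was highest for PARP1, at 58.0 CPM per kb, followed by UBE2T at 22.2, MDC1 at 21.4 and TOPBP1 at 18.5, with a median of 7.28. The lowest were FANCC at 1.194, FANCM at 2.08, RAD51D at 2.28 and FANCB at 2.30, and ATR stood at 3.55 CPM per kb. In all, 25 of the 39 genes share some exon bases with another gene in GENCODE v29, and 9 share at least 10% of them. Besides FANCA and FANCL these are ATR (16.4%, with a pseudogene on the opposite strand), ATRIP, FANCF, RAD50, RAD54L, TP53BP1 and XRCC3. RAD50 shares 79.7% with AC116366.3 and ATRIP 27.9% with TREX1, both on the same strand. XRCC3 shares 76.7% with KLC1 on the opposite strand. Whether the counting used strand is not given in the sources used here, and strand would not separate genes on the same strand. The values of these 9 genes are therefore less certain.

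**Figure D3:**
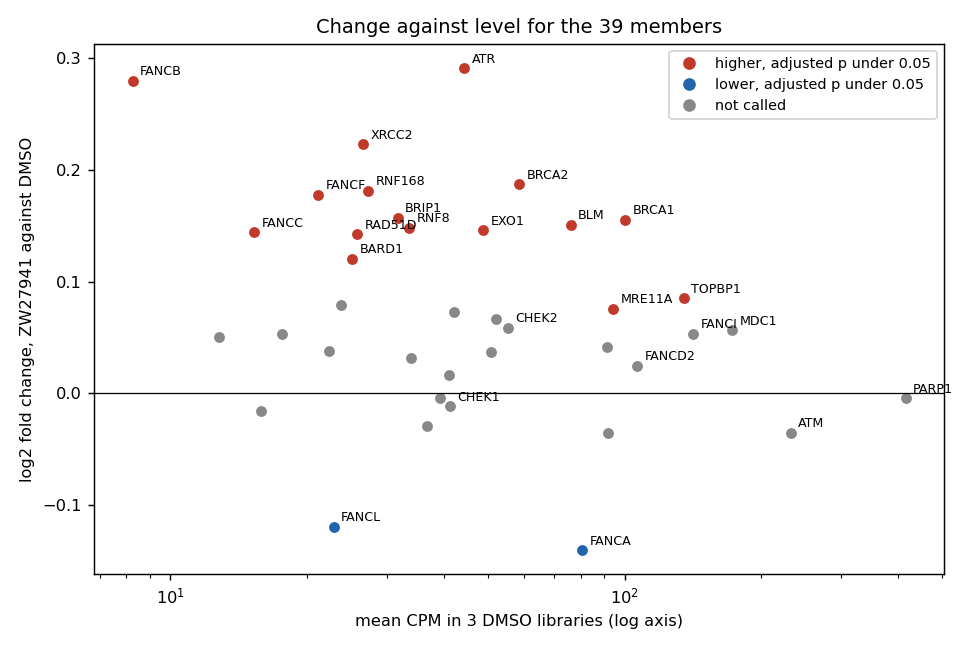
Log2 fold change on ZW27941 against the mean CPM of 3 DMSO libraries on a log axis, 1 point for each of the 39 genes, red where called higher, blue where called lower and grey where not called. The genes lie between 8.26 and 415 CPM, and the largest changes, of FANCB at 8.26 CPM and ATR at 44.3 CPM, lie in the lower part of that range.

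METTL3 places N6-methyladenosine in a short sequence whose core is GGACU, written GGACT in the reference. The longest transcript of 38 of the 39 genes held at least 1 copy, and BARD1 held 0. The median density was 0.864 per kb over the members, 0.689 over the 16 that rose and 0.913 over the 21 that were not called, against 0.938 over 13188 protein-coding genes tested. The median transcript was 4907 bases long in the members and 3595 bases in those genes. Copies of these letters do not show that a site is methylated.

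Other genes of the same pathways were taken from lists of known members, and most of them were not called, as was true of all genes tested. The share called was 25.8% in the other recombination genes, 42.9% in the other Fanconi genes and 33.3% in the other checkpoint genes. Over all genes tested it was 30.1%. Of 31 other recombination genes tested, 7 rose and 1 fell, with a median log2 fold change of 0.01, and the lowest p belonged to RMI1 (0.21), GEN1, a Holliday junction nuclease (0.17), and TOP3A (0.12). Of 14 other Fanconi genes, 4 rose and 2 fell. USP1, which removes ubiquitin from FANCD2, rose from 99.5 to 120 CPM (0.27), DCLRE1A, a crosslink repair nuclease, rose (0.23), and FAAP100, a partner of FANCB and FANCL, fell from 59.4 to 48.3 CPM (-0.30). Of 33 other checkpoint and break response genes, 7 rose and 4 fell, led by RAD1 of the clamp that works beside ATR (0.22), UBE2N, the conjugating enzyme of RNF8 (0.18), and UIMC1, a ubiquitin reader that recruits BRCA1 (0.18).

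Of 17 end joining genes, 2 rose, 4 fell and 11 were not called, with a median of -0.04. The share called was 35.3%, against 30.1% of all genes tested. POLQ, the polymerase of microhomology-mediated joining, had 65.0, 62.7 and 63.0 CPM in DMSO and 87.4, 87.6 and 85.6 CPM on ZW27941. All treated libraries exceeded all controls, and the change was larger than that of any member (log2 fold change 0.45, standard error 0.026, edgeR adjusted p = 4.17e-11). XRCC1, a scaffold of single-strand break repair, fell (-0.23), as did APTX (-0.13), which cleans blocked ends. Of 7 mismatch repair genes 1 passed (14.3%), PMS1, which rose (0.25).

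**Figure D4:**
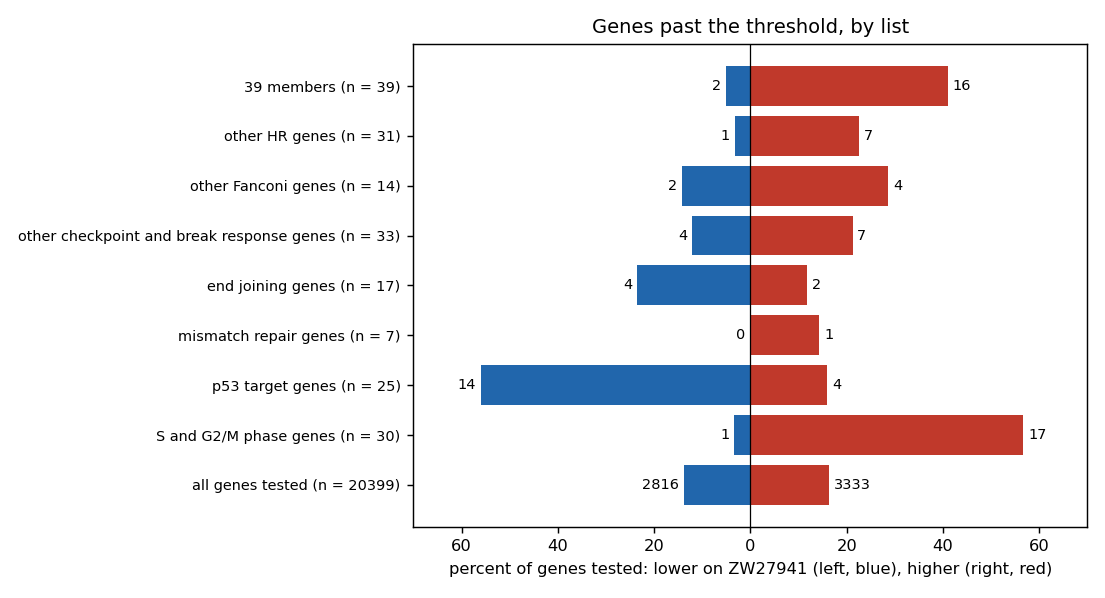
Percent of the genes tested in each list that were called lower (blue, left) or higher (red, right) on ZW27941, with the number of genes beside each bar and the number tested in brackets. The 39 members have 16 higher and 2 lower, the 25 p53 targets tested have 4 higher and 14 lower, and the 30 S and G2/M genes have 17 higher and 1 lower.

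Targets of p53, the transcription factor that ATM and CHEK2 activate, fell more often than they rose. Of 25 tested, 14 fell (56%, against 13.8% of all genes tested) and 4 rose (16%, against 16.3%). The median log2 fold change was -0.09, and 15 fell without ZW27941 replicate 3. The medians were -0.09, -0.09 and -0.11 in the treated libraries and lay between -0.0015 and 0.0085 in DMSO. CDKN1A, the inhibitor of cyclin-dependent kinases known as p21, stood at 315, 333 and 330 CPM in DMSO and at 278, 268 and 275 CPM on ZW27941 (log2 fold change -0.25, standard error 0.026, edgeR adjusted p = 2.26e-07). BBC3, a pro-apoptotic gene, fell (-0.38), as did SESN2 (-0.35). MDM2, the ubiquitin ligase of p53, had 208, 205 and 209 CPM in DMSO and 199, 197 and 192 CPM on ZW27941 (log2 fold change -0.08, standard error 0.024, edgeR adjusted p = 0.0123). The 4 that rose were TIGAR, TP53INP1, TP53I3 and TRIAP1.

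Of 30 genes of the S and G2/M phases tested, 17 rose (56.7%, against 16.3% of all genes tested). Of the others, 1 (CDC6) fell (3.33%, against 13.8%) and 12 were not called, and the median log2 fold change of the 30 was 0.07. The medians were 0.06, 0.08 and 0.07 in the treated libraries and -0.0036 to 0.01 in DMSO. MKI67, a marker of proliferation, rose from 529 to 668 CPM (0.34), MCM3 of the replicative helicase rose (0.24) and CENPF, a kinetochore protein, rose (0.19). As higher, 11 of these genes passed without DMSO replicate 3 and 13 without ZW27941 replicate 3. The part of the S and G2/M genes in the changes of the members was not tested.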

How the data were processed

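RNA from 6 libraries of MOLM13 cells was measured. The authors deposited raw counts per gene, with no normalization. Per the labels, HISAT2, SAMtools 1.19.2, HTSeq 2.0.3 and hg38 are named in the submitters' processing notes. The annotation and strand setting are not given in the sources used here. A library's table lists 56305 genes plus 5 HTSeq tallies of unassigned reads, which made up 37.4% to 39.8% of the reads tallied and were left out. Differences were tested with edgeR 4.0.16 under R 4.3.3 (TMM, filterByExpr, quasi-likelihood test), and p-values were adjusted by Benjamini-Hochberg over 20399 genes, threshold 0.05. The biological coefficient of variation was 3.11%.

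The 39 members and the other lists were chosen with earlier results of these data known. Every member called was named, with the 15 of lowest p and 10 central genes of the pathway shown per library, and in each other list the 3 called genes with the lowest p. FAAP20, FAAP24, FAAP100 and TIGAR were respelled as the counts give them. Coordinates and exon lengths came from GENCODE v29 (GRCh38) and promoters from RefSeq (GRCh38.p14). The steps were tested on simulated data. Alternatives were RLE, upper quartile and library size only, DESeq2 1.42.0, likelihood ratio and exact tests in edgeR, changed filters and thresholds, the replicate number as a block, and each library left out. A gene of the other recombination genes is not reported here.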

Additional observations from a re-analysis of the deposited data

How the results depend on the processing

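Of the 18 members called, 18 also passed with library size only, DESeq2, the likelihood ratio and exact tests, no filter or at least 10 counts in every library, 17 with RLE (without MRE11A) and 16 with upper quartile (without MRE11A and TOPBP1), and 0 changed sign in any setting. With upper quartile normalization 2644 of all genes were higher and 3643 lower, against 3333 and 2816 with TMM. The median log2 fold change was then 0.035 for the members and -0.025 for all genes tested, against 0.059 and -0.0019 with TMM. The checkpoint kinases had 1 call, end sensing and resection 1 and mismatch repair 2. RLE and an adjusted p under 0.01 also left 1 call in end sensing and resection. With library size only the median log2 fold change of the members was 0.0689, MDC1, PALB2 and TP53BP1 also passed, and the chromatin break response had 4 calls. At an adjusted p under 0.01, 15 members passed, 1 of them lower, with 1 call among the checkpoint kinases, 5 in the other recombination genes and 7 in the other checkpoint genes.

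With a log2 fold change over 0.25 in size, 2 members passed (ATR and FANCB), 2 higher and 0 lower, with 0 in recombination mediators, end sensing, RecQ helicases and the chromatin break response, 1 in the Fanconi core and 1 in the checkpoint kinases. The other lists had 1 (other recombination), 2 (other Fanconi), 0 (other checkpoint), 1 (end joining), 0 (mismatch repair), 7 (p53 targets, 5 lower) and 1 (S and G2/M, 1 higher). The cause of these moves was not tested, except that a stricter threshold can only remove calls.

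With each library left out in turn, 14 (without ZW27941 replicate 2) to 21 (without ZW27941 replicate 3) members passed, 12 to 19 higher and 1 to 2 lower, and the median ran from 0.056 to 0.070. Of all genes, 2716 were higher and 2223 lower without ZW27941 replicate 2, and 3251 higher and 2883 lower without ZW27941 replicate 3. Calls ran from 1 to 2 in end sensing and resection, 1 to 2 in the checkpoint kinases, 2 to 4 in the chromatin break response, 5 (without DMSO replicate 3) to 11 in the other recombination genes, 7 (without DMSO replicate 3) to 11 in the other checkpoint genes, 3 (without ZW27941 replicate 2) to 8 in end joining, 1 to 2 in mismatch repair and 11 (without DMSO replicate 3) to 16 higher in the S and G2/M genes, where fewer libraries entered each fit.

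The replicate numbers did not pair the libraries: the deviations of same-numbered libraries correlated at -0.0136, 0.0138 and 0.0324. With the replicate block 17 members passed (without MRE11A), so that end sensing and resection had 1 call, and 3243 of all genes were higher and 2767 lower. Correction for GC content and length, alone or with the block, was not run, since 79.1% of the genes tested had values, under the 80% set. The limit of a log2 fold change over 1 held for 0 members in every setting.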
